A study of Mus musculus with 4 samples.

Results

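Arid5b, Trib2, Adam19, Cd53 and Tgfbr2, 5 genes of a set of 6, are among the 31053 genes counted in single thymocytes of FVB/N mice, and they were followed here across 4 droplet-based 3′ libraries. They were selected on their levels in these libraries, as genes of the TAL1 or LMO2 target lists. They were higher in dormant than in proliferative leukemic cells of a double-negative 3 (DN3) phenotype. That difference inside the DN3 gate is therefore given below as a description with no test. For Arid5b, Adam19, Cd53 and Tgfbr2 the study also used published signatures of treatment-resistant patient cells, from minimal residual disease and label-retaining cells. Checked against the lists, 4 of the 5 were on the TAL1 target list used by the study, of which 201 genes were found in the files and used here, while Adam19 was on its LMO2 list alone. The libraries were 1 of a wild type (WT) thymus and 1 of a preleukemic Tal1/Lmo2 transgenic thymus, both from mice of 6 weeks, and 2 of leukemic Tal1/Lmo2 thymi (T-ALL#1 and T-ALL#2), both from mice of 3 months. Both transgenes are driven by the proximal Lck promoter, which is active in T-lineage cells, and all cells were sorted as viable. Age and leukemia cannot be told apart, and with 1 WT and 1 preleukemic animal no spread between animals is known for those groups.

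TAL1 is a basic helix-loop-helix transcription factor that is silent in most normal thymocytes and is switched on in many T-cell acute lymphoblastic leukemias (T-ALL). It binds E-box sequences as a heterodimer with E proteins, in a complex that can hold LMO2, LDB1, GATA3 and RUNX1. ARID5B is a DNA-binding protein with an AT-rich interaction domain and is known as a TAL1-induced gene in human T-ALL cells. TRIB2 is a pseudokinase, ADAM19 a membrane metalloprotease, CD53 a leukocyte tetraspanin and TGFBR2 the ligand-binding receptor of TGF-beta.

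Depth and labels were read first. The 4 libraries held 4115, 5530, 5770 and 1975 kept cells in the order WT, preleukemic, T-ALL#1 and T-ALL#2, with median depths of 3686, 4859, 8725.5 and 17581 unique molecular identifiers (UMIs) per cell. Tal1 had 0 UMIs in WT, which at a floor of 3 UMIs allows a level of up to 0.146 CPM (UMIs of a gene per 1000000 UMIs), and 417, 68.4 and 234 CPM in the other libraries. Xist and the Y-linked genes went against the male labels of the library labelled WT and the library labelled preleukemic, with 1 and 5 Y-linked UMIs. T-ALL#1 held 1932 CPM of Xist and 1 Y-linked UMI, while T-ALL#2 held 3 Xist UMIs and 4413 Y-linked UMIs. Differences between T-ALL#2 and the other libraries thus cannot be told apart from sex. All 10 thymocyte markers were detected in every library, with summed levels of 6487 to 13298 CPM. Summed levels of the B cell list were 79.6 to 191 CPM and of the myeloid list 84.5 to 480 CPM, both highest in WT, and the gamma-delta T cell list reached 2175 CPM in the preleukemic library against 215 to 384 CPM in the others. At most 9 barcodes were shared by any pair of libraries.

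All 5 genes have a RefSeq promoter window, from 250 bases before to 50 bases after the start of transcription on GRCm38.p6, and Adam19 has 3. The windows of Arid5b, Cd53 and Tgfbr2 are printed because these genes lay closest together in the data below and differ in this window, with capitals marking each CAGNTG E-box on either strand. Their positions are chr10:68278677-68278976, chr3:106790100-106790399 and chr9:116175314-116175613, all on the minus strand.
Arid5b: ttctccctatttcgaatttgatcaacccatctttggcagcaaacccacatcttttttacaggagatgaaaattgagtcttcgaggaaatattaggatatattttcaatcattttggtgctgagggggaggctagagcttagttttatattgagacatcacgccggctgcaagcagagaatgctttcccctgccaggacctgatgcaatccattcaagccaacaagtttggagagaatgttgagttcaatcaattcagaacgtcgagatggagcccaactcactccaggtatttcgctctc
Cd53: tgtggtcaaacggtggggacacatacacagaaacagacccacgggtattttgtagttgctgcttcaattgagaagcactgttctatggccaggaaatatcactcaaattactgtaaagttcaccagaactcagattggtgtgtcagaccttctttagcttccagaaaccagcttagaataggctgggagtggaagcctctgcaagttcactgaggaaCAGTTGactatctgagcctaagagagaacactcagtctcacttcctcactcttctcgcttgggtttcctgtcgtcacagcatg
Tgfbr2: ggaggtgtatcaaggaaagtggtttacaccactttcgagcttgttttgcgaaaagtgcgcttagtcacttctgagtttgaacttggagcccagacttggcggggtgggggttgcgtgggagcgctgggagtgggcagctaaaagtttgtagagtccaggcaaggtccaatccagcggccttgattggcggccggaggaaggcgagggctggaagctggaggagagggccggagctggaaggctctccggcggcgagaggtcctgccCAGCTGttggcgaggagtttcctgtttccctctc
Motifs were searched on both strands as the E-box CAGNTG, its TAL1-preferred form CAGATG (which is also counted under the first), the GATA motif as GATAA and the RUNX motif as TGTGGT. The Arid5b and Trib2 windows held none of the 4 motifs, while Cd53 held 1 CAGNTG and 1 TGTGGT, the latter at the far end of its window, and Tgfbr2 held 1 CAGNTG. The 3 Adam19 windows held 3, 1 and 5 CAGNTG. The first of them also held 1 GATAA and the last 1 TGTGGT, which overlaps an E-box, and 1 E-box of each of these windows was CAGATG. Of all 32851 windows of 300 bases, 51.4% held CAGNTG, 17.2% CAGATG, 25.4% GATAA and 16.8% TGTGGT.

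The level of Arid5b (ENSMUSG00000019947, chromosome 10, 68092520 to 68278740) was highest in WT, at 63.4 CPM (95% counting interval 60.0 to 66.9). It was 50.9 CPM (48.6 to 53.1) in preleukemic cells. T-ALL#1 had 13.0 CPM (12.2 to 13.9) and T-ALL#2 had 8.53 CPM (7.60 to 9.53). Both leukemias lay below both other thymi. Cd53 (chromosome 3, 106759921 to 106790149) followed the same order at 229, 221, 51.7 and 26.2 CPM, as did Tgfbr2 (chromosome 9, 116084293 to 116175360) at 54.1, 41.7, 17.7 and 9.52 CPM. These 3 genes were thus lower in each leukemia than in the preleukemic thymus. The order of WT and preleukemic cells held for summed UMIs only. With cells weighted equally, WT and preleukemic levels were 65.6 and 70.9 CPM for Arid5b and 189 and 300 CPM for Cd53. For Tgfbr2 they were then 52.8 and 67.2 CPM, and both leukemias stayed below both other thymi for these genes.

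Over all cells, Trib2 and Adam19 did not follow the order of Arid5b. Trib2 (chromosome 12, 15791727 to 15816922) was 46.9, 50.9 and 48.8 CPM in WT, preleukemic and T-ALL#2 cells and 109 CPM (106 to 111) in T-ALL#1. Adam19 (chromosome 11, 46055992 to 46147343) was 13.6 and 17.3 CPM in WT and preleukemic cells and 71.4 CPM (69.5 to 73.4) in T-ALL#1. T-ALL#2 lay between them, at 24.3 CPM (22.7 to 26.0). T-ALL#1 was therefore the highest library for both. Shares of cells with a UMI were also taken, at 2000 UMIs per cell so that depth was equal. At such low levels this share follows the mean level. Neither sums nor shares can therefore tell fewer cells with a transcript from less of it per cell. Cells of fewer UMIs were left out, which were 991 WT, 350 preleukemic, 94 T-ALL#1 and 0 T-ALL#2 cells. Arid5b was detected in 11.5% of WT, 11.5% of preleukemic, 3.98% of T-ALL#1 and 2.18% of T-ALL#2 cells, and Adam19 in 1.92%, 3.32%, 19.3% and 6.58%. Before thinning the shares for Arid5b were 19.2%, 25.7%, 11.8% and 11.1%.

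**Figure D1:**
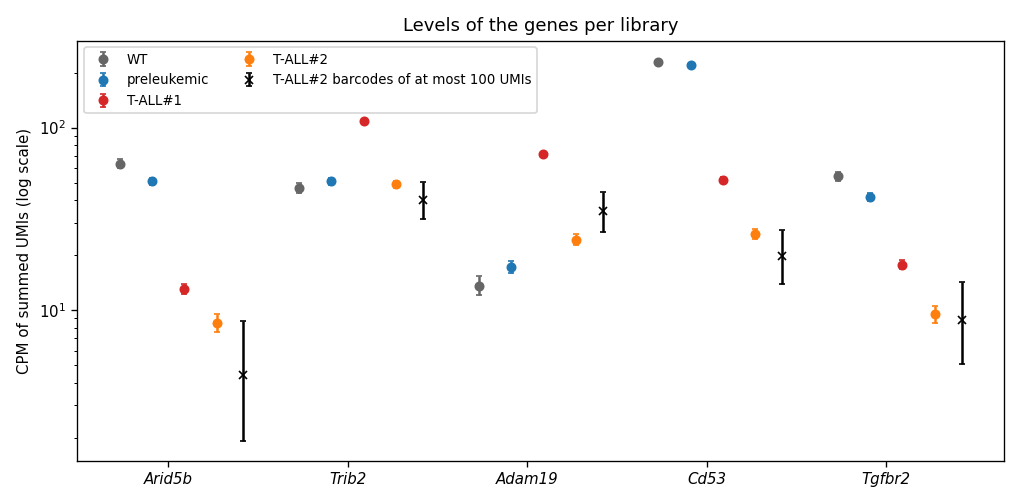
The level of each gene is plotted as CPM of UMIs summed over kept cells, on a log axis, for each library, with 95% Poisson counting intervals; crosses give barcodes of at most 100 UMIs in T-ALL#2. Arid5b, Cd53 and Tgfbr2 step down in both leukemias, and Trib2 and Adam19 are highest in T-ALL#1.

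Ratios between single libraries carry no test and were read against a 2-fold limit among genes of at least 10 CPM. From WT to preleukemic, 0 of the 5 genes were lower, against 5.47% of all 8444 genes, and 0 were higher, against 4.56%, with ratios of at most 1.30-fold (Tgfbr2, higher in WT). From preleukemic to T-ALL#1, 3 were lower, against 12.1% of 8366 genes, with 3.91-fold for Arid5b, 4.27-fold for Cd53 and 2.35-fold for Tgfbr2. In the same comparison 2 were higher, Adam19 by 4.14-fold and Trib2 by 2.14-fold, against 5.15%. From preleukemic to T-ALL#2, 3 were lower, against 27.7% of 8247 genes, with 5.96-fold for Arid5b, 8.44-fold for Cd53 and 4.38-fold for Tgfbr2, and 0 were higher, against 4.15%. Both of these comparisons share the preleukemic library.

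Scaling and cell state moved these ratios. With TMM factors, all log2 ratios to preleukemic cells rose by 0.27 for T-ALL#1 and by 0.51 for T-ALL#2. Tgfbr2 in T-ALL#1 was then 1.95-fold lower, short of the limit, and Adam19 in T-ALL#2 was 2.01-fold higher. In non-cycling cells alone the levels of Arid5b were 82.4, 70.4, 29.2 and 14.9 CPM and those of Cd53 289, 308, 117 and 41.1 CPM, so the leukemias were again the lowest libraries. Tgfbr2 was then 59.8 CPM in preleukemic and 30.8 CPM in T-ALL#1 cells, a log2 ratio of -0.96 and short of 2-fold. With a mitochondrial limit of 5%, Trib2 in T-ALL#1 was higher by 0.89 log2 units, also short of it. Empty barcodes of T-ALL#2 held 40.2 CPM of Trib2 and 34.7 CPM of Adam19, against 48.8 and 24.3 CPM in its cells, and 4.41 CPM of Arid5b (1.90 to 8.69) against 8.53 CPM. The part of free RNA in the T-ALL#2 levels was not tested.

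Cycling cells were compared with non-cycling cells to ask whether the fall of these genes with proliferation reached beyond the DN3 gate. The cells come from the same libraries, whose earlier results were known when the genes were chosen. DN3-stage cells without a counted Il2ra UMI also fall outside the gate, so these cells are not independent of that choice. Cells were divided at 80.7 UMIs of cell-cycle genes per 10000, with 3735 of 17390 kept cells (21.5%) within 0.5 log2 units of that threshold. Cycling cells had less Arid5b in every library, with 13.4 against 83.9 CPM for WT, 21.2 against 72.6 CPM for preleukemic, 4.95 against 29.4 CPM for T-ALL#1 and 3.21 against 16.0 CPM for T-ALL#2. The fitted change was -2.17 log2 units (SE 0.19) with an adjusted p of 3.2e-04 in edgeR's quasi-likelihood test over 11353 genes, with the library as a block. All 5 genes fell, and each was lower in 4 of 4 libraries, against 29.9% of genes called lower and 23.1% called higher. The fitted changes were -1.97 for Cd53 (SE 0.15), -1.60 for Adam19 (SE 0.19), -1.30 for Tgfbr2 (SE 0.17) and -1.22 for Trib2 (SE 0.13). With the WT and preleukemic libraries alone, in which no leukemic cell entered, 5 of 5 were again called, against 18.4% of 11704 genes called lower and 18.8% called higher, from -1.94 for Arid5b to -1.02 for Trib2. In WT the summed myeloid list was 166 CPM in cycling and 609 CPM in non-cycling cells (8 and 10 of 10 genes detected), and the erythroid list 0.357 and 150 CPM (1 and 5 of 6 genes). In the other libraries the myeloid list was 70.6 to 94.5 CPM in cycling and 111 to 185 CPM in non-cycling cells, and the erythroid list was at most 0.552 CPM. The part of these cells in the result was not tested.

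CPM is a share of a cell's transcripts, and cycling cells held more of them. Median depths outside the gate were 10517 against 3386.5 UMIs for WT, 12913.5 against 4371 for preleukemic, 20210.5 against 4916 for T-ALL#1 and 25248 against 11923 for T-ALL#2. Counted per cell, Arid5b was still lower in cycling cells of 4 of 4 libraries, at 0.142 against 0.343 UMIs per cell in WT, 0.278 against 0.381 in preleukemic, 0.104 against 0.194 in T-ALL#1 and 0.0811 against 0.211 in T-ALL#2. Cd53 was also lower in 4 of 4, from 0.774 against 1.20 in WT to 0.316 against 0.597 in T-ALL#2. Trib2 had 0.233 against 0.236 UMIs per cell in WT, 1.28 against 1.35 in T-ALL#1 and 0.834 against 0.948 in T-ALL#2, but more in cycling preleukemic cells, at 0.396 against 0.346. Adam19 had 0.0702 against 0.0676 in WT and fewer UMIs per cycling cell in the other libraries, such as 0.641 against 0.999 in T-ALL#1. Tgfbr2 had more UMIs per cycling cell in WT, T-ALL#1 and T-ALL#2 and fewer in the preleukemic library.

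In the edgeR test on UMIs per cell, a scale chosen after the data had been seen, 2 of the 5 genes were called lower, against 1.81% of genes called lower and 81.0% called higher. They were Arid5b, at -0.97 (SE 0.20, adjusted p = 4.0e-06), and Cd53, at -0.77 (SE 0.19, adjusted p = 1.1e-04). The estimates of the others were -0.38 for Adam19 (SE 0.20, adjusted p = 0.065), -0.08 for Tgfbr2 (SE 0.20) and -0.02 for Trib2 (SE 0.19). That fit estimated infinite prior degrees of freedom, so its p-values rest on 1 dispersion trend shared by all genes.

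**Figure D2:**
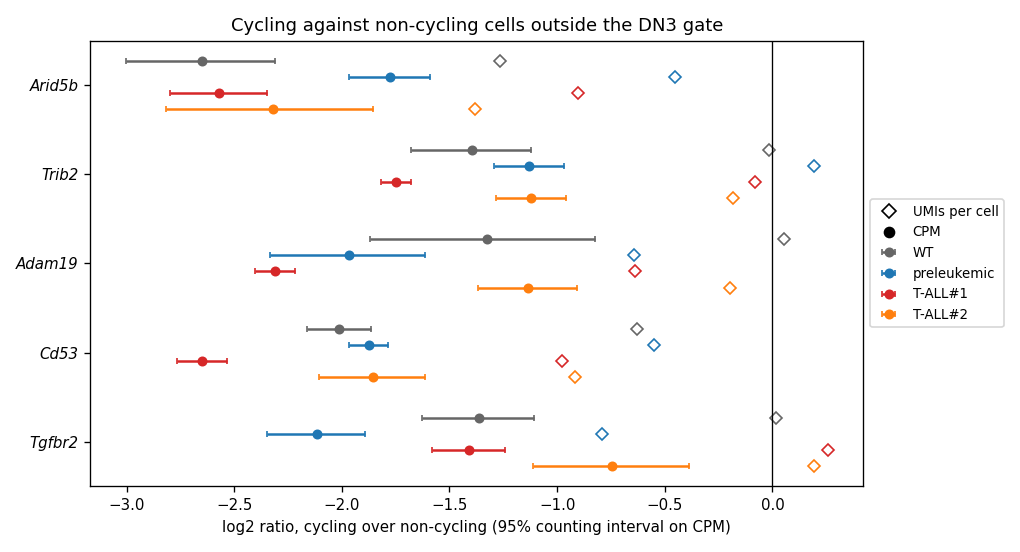
For each gene and library, the x axis gives the log2 ratio of cycling over non-cycling cells outside the DN3 gate, as CPM (filled circles, with 95% counting intervals) and as UMIs per cell (open diamonds). All filled circles lie below 0, while the diamonds lie below 0 in all 4 libraries for Arid5b and Cd53 alone.

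Inside the DN3 gate, which the choice of genes had used, the 5 genes had log2 ratios of -3.25 (Arid5b) to -1.86 (Trib2) in T-ALL#1. In T-ALL#2 they were nearer 0, with 3.71 against 10.5 CPM of Arid5b and ratios of -0.54 for Trib2, -0.51 for Cd53, -0.38 for Tgfbr2 and -0.30 for Adam19, and the counting intervals of Tgfbr2 and Adam19 crossed 0. The preleukemic gate, which held 277 non-cycling and 107 cycling cells, gave -1.92 for Arid5b and -2.72 for Tgfbr2. The WT gate held 2 cycling cells, too few for a ratio. Counted as UMIs per cell, the T-ALL#2 log2 ratio in the gate was -0.75 for Arid5b. It was above 0 for Trib2 (0.21), Adam19 (0.45), Cd53 (0.24) and Tgfbr2 (0.37). In the T-ALL#1 and preleukemic gates, each of the 5 genes had fewer UMIs per cycling cell.

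Other genes of the same pathways moved in the same test. Of the TAL1 target list without these genes, 85 of 150 tested genes were lower in cycling cells and 16 higher, with a median of -0.60 against -0.10 over all genes tested. Over all genes, 29.9% were lower and 23.1% higher, as background for each list here. Its 5 largest changes were in Cep55, which acts in the separation of daughter cells (4.97), Gen1, a DNA junction resolvase (2.89), Tmem107 (2.19), Cd226 (-3.35) and S1pr1, the receptor by which thymocytes leave the thymus (-3.22). Of the TGF-beta list, 16 of 21 genes were lower, among them the inhibitors Smad7 (-2.37) and Skil (-1.05) and the type I receptor Tgfbr1 (-0.32), while the signal transducer Smad2 was higher (0.28). Of the paralog list, 11 of 22 were lower and 0 higher, among them Cd37 (-1.73), Tspan32 (-1.74), Arid5a (-1.13) and Trib1 (-0.44). Of the TAL1 complex genes, 5 of 8 were lower, with Lmo2 at -1.73, Ldb1 at -0.64 and Runx1 at -0.26, all named after their values were seen. Of the LMO2 target list 35 of 61 were lower and 3 higher. These lists were not fitted per cell.

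Stages of thymocyte development were read from detection of Cd4, Cd8a and Il2ra at 2000 UMIs per cell. Il2ra without Cd4 or Cd8a marks early double-negative cells, and Cd4 with Cd8a marks the double-positive stage. The gate names refer to detected UMIs alone, since a gene without a UMI at this depth can still be expressed. The double-positive gate held 33.1% of WT cells, and none of the 3 genes was detected in 26.0% of WT and 76.9% of preleukemic cells. Empty barcodes of T-ALL#2 held 133 CPM of Il2ra, and the part of free RNA in these gates was not tested. In WT, Arid5b was 59.3 CPM in Il2ra-positive double-negative cells, 94.3 CPM in cells with none of the 3 genes, 41.8 CPM with Cd8a alone, 21.1 CPM in double-positive cells and 99.1 CPM with Cd4 alone. Double-positive cells were thus the lowest WT gate for Arid5b. Cd53 in WT was also lowest there, at 54.9 CPM against 135 to 380 CPM in the other gates, as was Adam19, at 2.29 CPM against 11.6 to 24.5 CPM. Tgfbr2 was lowest there too, at 36.2 CPM (30.7 to 42.3). Its interval overlapped those of Il2ra-positive double-negative cells (26.6 to 65.6) and of cells with Cd8a alone (38.2 to 50.2).

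The leukemias had another order. In T-ALL#1, double-positive cells were the highest of the 5 gates for Trib2 (255 CPM), Adam19 (188 CPM), Tgfbr2 (28.8 CPM) and Arid5b (27.3 CPM), and Il2ra-positive double-negative cells had 107, 82.4, 16.5 and 8.73 CPM of these genes. In T-ALL#2, double-positive cells had 57.6 CPM of Adam19 (36.5 to 86.5) against 23.7 CPM (20.4 to 27.4) in Il2ra-positive double-negative cells. Between T-ALL#1 and WT, Adam19 thus stood at 188 against 2.29 CPM (1.10 to 4.21) in double-positive cells and at 82.4 against 24.5 CPM (12.7 to 42.8) in Il2ra-positive double-negative cells. Cycling differed between these gates as well, with 48.2% of Il2ra-positive double-negative and 7.38% of double-positive T-ALL#1 cells cycling, against 2.13% and 14.0% in WT. Among non-cycling cells alone, Adam19 was 25.5 against 3.40 CPM in WT, 54.1 against 7.94 CPM in preleukemic, 167 against 221 CPM in T-ALL#1 and 32.7 against 67.6 CPM in T-ALL#2, Il2ra-positive double-negative cells first. In non-cycling T-ALL#1 cells Trib2 was also still highest in the double-positive gate, at 294 CPM. For Arid5b that order was not kept, with 32.8 CPM in double-positive cells and 34.3 CPM with Cd8a alone. Tgfbr2 was nearly level between gates, at 33.0 CPM in double-positive cells and 33.0 CPM in cells with none of the 3 genes. In Il2ra-positive double-negative cells Tgfbr2 was 31.2 CPM. Several gates were small, with 47 Il2ra-positive double-negative WT cells, 70 double-positive preleukemic cells and 44 double-positive T-ALL#2 cells.

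**Figure D3:**
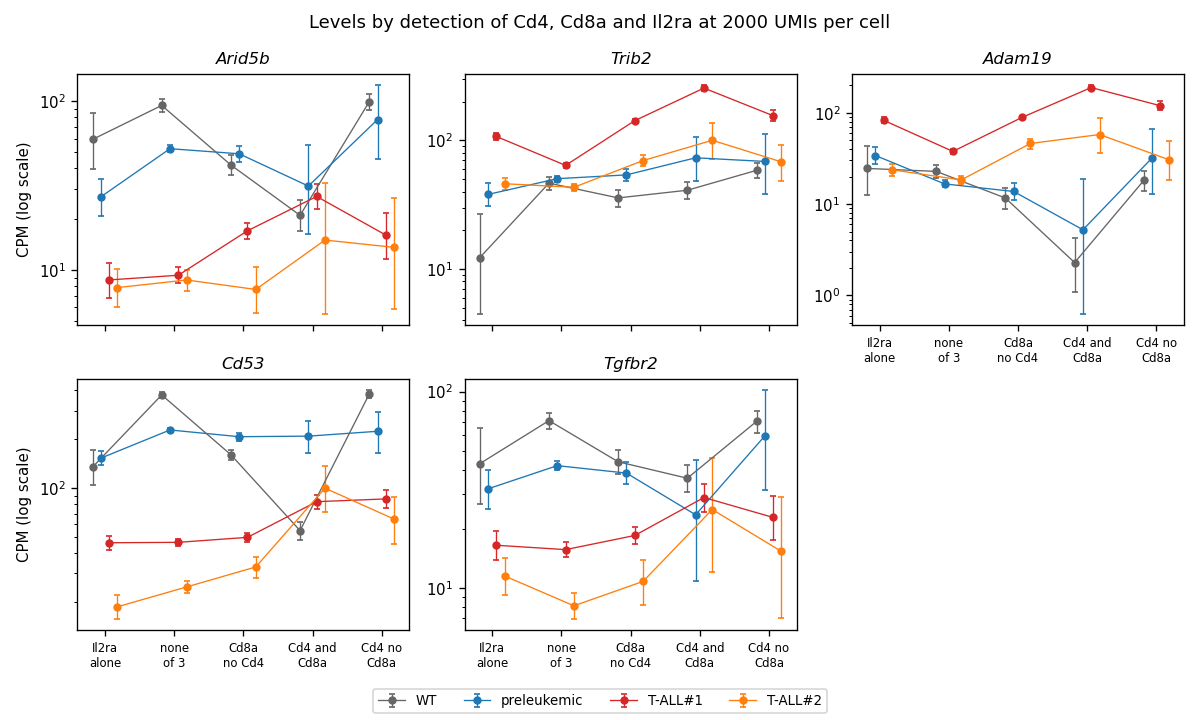
Each panel shows 1 gene, with CPM on a log axis against 5 gates set by detection of Il2ra, Cd8a and Cd4 at 2000 UMIs per cell, points with 95% counting intervals, and lines joining the gates of a library. Adam19, Arid5b and Cd53 dip in WT double-positive cells and not in those of T-ALL#1 or T-ALL#2.

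Over the 4 libraries together, the edgeR test of Il2ra-positive double-negative against double-positive cells called 1 of the 5 genes lower, against 5.89% of 9704 genes, and 0 higher, against 5.51%. The gene called was Trib2, at -1.10 log2 units (SE 0.16, adjusted p = 0.0072) and lower in 4 of 4 libraries. At an unadjusted p under 0.05, 1 of the 5 genes passed, against 2753 of all 9704 genes. DESeq2 also called 1 lower and 0 higher, against 599 lower and 718 higher of all 9704 genes. For Adam19 the estimate was 0.09 with an SE of 1.00, the largest SE of the 5, and the libraries differed in sign. Trib2 passed no longer among non-cycling cells alone, at -0.64 (adjusted p = 0.073), nor without T-ALL#1, at -1.08 (adjusted p = 0.055), or without the preleukemic library, at -1.14 (adjusted p = 0.063), estimates close to that over all libraries. Without WT, Arid5b passed as well, at -0.94 (adjusted p = 0.047). Of the TAL1 target list without these genes, 30 of 135 were lower in Il2ra-positive double-negative cells and 3 higher, with a median of -0.24 against -0.01 over all genes tested. Of the LMO2 target list 4 of 48 were lower and 3 higher. Smad7 was higher (1.92) and Nedd9 lower (-0.97) among 18 TGF-beta genes, and Adam17 (-0.85) and Cd37 (-0.77) were lower among 16 paralogs. Of 6 TAL1 complex genes, Tcf12 was lower (-0.65).

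Cells in which the Tal1 transgene was detected were compared with the other cells of the same library, to ask whether the genes followed Tal1 from cell to cell. At 2000 UMIs per cell Tal1 was detected in 55.7% of preleukemic, 13.8% of T-ALL#1 and 37.8% of T-ALL#2 cells, so undetected cells are not cells without Tal1. As a background, it was detected in 3 of 29, 1 of 15 and 2 of 13 B-like or myeloid-like cells. Empty barcodes of T-ALL#2 held 567 CPM of Tal1 against 234 CPM in its cells, and the part of free RNA in Tal1 detection was not tested. Trib2 was 79.1 CPM in Tal1-detected and 52.0 CPM in undetected preleukemic cells, 198 and 184 CPM in T-ALL#1, and 85.0 and 44.4 CPM in T-ALL#2. Adam19 was 19.8 and 18.1 CPM, 160 and 129 CPM, and 48.2 and 31.8 CPM in the same order. Both were higher in Tal1-detected cells of 3 of 3 libraries, while Arid5b was 10.0 against 14.3 CPM in T-ALL#2. The counting intervals of the ratio included no difference for Trib2 in T-ALL#1, for Adam19 in the preleukemic library and for Arid5b in all 3 libraries.

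Of the 5 genes, 0 passed the edgeR test as higher in Tal1-detected cells, against 2.27% of 9866 genes, and 0 were lower, against 4.88%. At an unadjusted p under 0.05, 2 of the 5 genes passed, both higher, against 1964 of all 9866 genes in either direction. DESeq2 called 1 higher, Trib2 (adjusted p = 0.044), against 23 of all 9866 genes called higher. Trib2, at 0.39 log2 units (SE 0.11, adjusted p = 0.051), and Adam19, at 0.30 (SE 0.10, adjusted p = 0.057), lay just outside the threshold. The estimates were 0.13 for Arid5b (SE 0.12), 0.18 for Tgfbr2 (SE 0.14) and -0.04 for Cd53 (SE 0.08). Trib2 passed without T-ALL#1, at 0.66 (adjusted p = 1.2e-06), and without T-ALL#2, at 0.29 (adjusted p = 0.027), and Adam19 passed without the preleukemic library, at 0.37 (adjusted p = 0.048). Trib2 did not pass without the preleukemic library, at 0.33 (adjusted p = 0.25), nor did Adam19 without T-ALL#1, at 0.29 (adjusted p = 0.35), or without T-ALL#2, at 0.23 (adjusted p = 0.28). Both Trib2 fits that passed had 1 residual degree of freedom and infinite prior degrees of freedom, so their p-values rest on a dispersion trend shared by all genes. Without DN3-gated cells, 0 of the 5 genes passed in edgeR, and Trib2 was 0.37 (adjusted p = 0.14). At an unadjusted p under 0.05, 2 of the 5 passed there, against 1799 of 9728 genes.

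**Figure D4:**
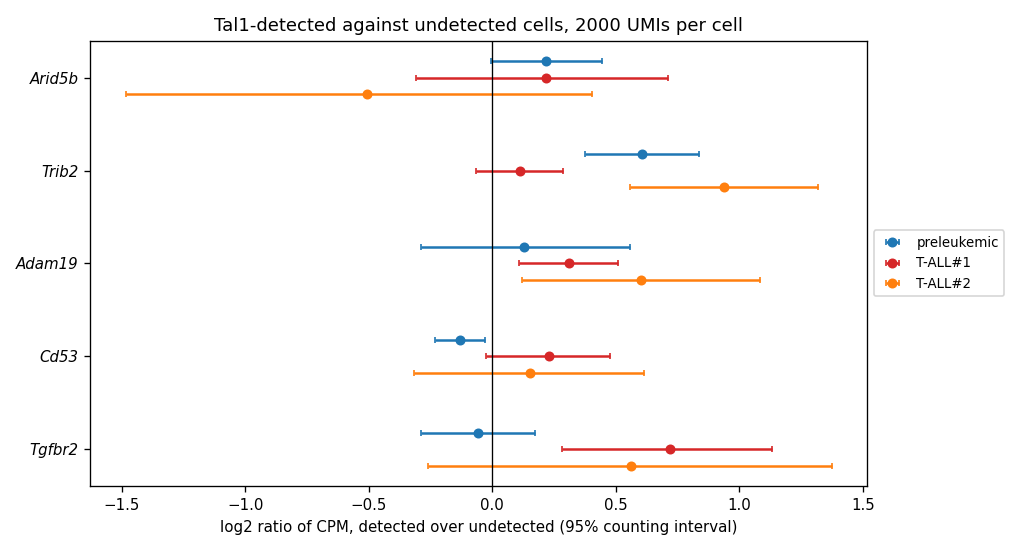
The x axis gives the log2 ratio of CPM in Tal1-detected over undetected cells at 2000 UMIs per cell, with 95% counting intervals, for the 3 transgenic libraries. Trib2 and Adam19 lie above 0 in all 3, and Arid5b lies on both sides.

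Tal1-detected cells cycled less often, at 17.7% against 23.9% of preleukemic, 24.3% against 41.1% of T-ALL#1 and 33.2% against 43.5% of T-ALL#2 cells. Detection was scored at an equal depth per cell, so it follows the share of Tal1 among a cell's UMIs. In that order, Tal1 outside the DN3 gate was 298, 45.2 and 208 CPM in cycling and 508, 112 and 281 CPM in non-cycling cells. Counted per cell, Tal1 was higher in cycling cells of each of these libraries, at 3.91, 0.946 and 5.24 UMIs against 2.66, 0.740 and 3.71. Among non-cycling cells alone 0 of the 5 genes passed in edgeR, and 12 of 9352 genes passed in all. At an unadjusted p under 0.05, 0 of the 5 passed there, against 650 of 9352 genes. Trib2 was then 0.27 (adjusted p = 0.75) and Adam19 0.06 (adjusted p = 0.96). In non-cycling T-ALL#1 cells the log2 ratio of Trib2 was -0.12, and Adam19 was 197 CPM in Tal1-detected and undetected cells alike. The libraries differed, since Trib2 was 0.58 (0.33 to 0.83) in non-cycling preleukemic and 0.81 (0.38 to 1.24) in non-cycling T-ALL#2 cells. For Adam19 these log2 ratios were 0.0015 (-0.43 to 0.44) and 0.36 (-0.18 to 0.89). Of the TAL1 target list without these genes, 16 of 135 were higher in Tal1-detected cells of all states and 1 lower, with a median of 0.10 against 0.00 over all genes tested. Over all genes, 2.27% were higher and 4.88% lower in cells of all states, as background for each list here. The 5 with the largest change were Atxn1 (0.47), the NF-kappa B inhibitor Tnfaip3 (0.44), the phosphatase Ppm1h (0.43), the phosphodiesterase Pde3b (0.40) and Acadm, an enzyme of fatty acid oxidation (0.34). Runx1 (0.24) and Tcf12 (0.18) of the TAL1 complex and the Cd53 paralog Tspan32 (0.26) were higher too, and 0 of 18 TGF-beta genes passed in edgeR in either direction. Of the LMO2 target list 4 of 50 were higher and 2 lower. These lists were not counted among non-cycling cells alone.

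Finally, genes were ranked by likeness to Arid5b over 35 sums of cells by library, gate and cycling state, centred within each library. The sums share libraries and depth, so the correlations are a description. Of 5750 genes of at least 20 CPM on average, the closest were Ikbke (r = 0.94), Cd53 (0.93), Ripor2 (0.93), Rassf5 (0.93) and Ipcef1 (0.93). Tgfbr2 ranked 97, Adam19 187, Trib2 349 and Tal1 1460. Without centring, r with Arid5b was 0.95 for Cd53 and 0.18 for Adam19, whose levels between libraries ran apart from those of Arid5b. In single cells, Cd53 was detected in 48.9% of WT cells with an Arid5b UMI and 26.9% of WT cells without one, and in 30.1% and 13.2% of T-ALL#1 cells. The shares were 49.1% and 39.0% for preleukemic cells and 49.7% and 44.2% among those not cycling, where the intervals overlapped. They also overlapped for T-ALL#2, at 16.3% (6.81 to 30.7) and 7.51% (6.37 to 8.77).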

How the data were processed

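Single-cell counts were deposited by the authors as UMIs per gene and barcode from Cell Ranger (3.0.2 for WT, preleukemic and T-ALL#1, version 4 for T-ALL#2, whose matrix holds all barcodes), without normalization; the submitters' notes name mm10. The chemistry of each library is not given in the sources used here. Cells had over 500 genes, under 10% mitochondrial UMIs, genes below the mean plus 3 SD and, in T-ALL#2, at least 3416 UMIs; no doublet caller was run, and only the gene ceiling acts on doublets. The DN3 gate was 0 UMIs of Cd4, Cd8a and Cd44 with ln(1 + Il2ra per 10000) over 0.5. B-like and myeloid-like cells had UMIs of at least 3 markers of a list.

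The 6 genes and all lists were chosen with earlier results of these data known; 1 of the 6 is not reported here and stays out of all counts of the set and lists. Named genes are the other 5, the 5 largest changes of the TAL1 list past the threshold, genes of the TGF-beta and paralog lists past it, and the 5 most like Arid5b. UMIs summed per library and state were compared with edgeR 4.0.16 (quasi-likelihood, robust, TMM, filterByExpr) in R 4.3.3, Benjamini-Hochberg adjusted over all genes, threshold 0.05; the animal is the replicate. Both sums of a library come from 1 animal, and their deviations correlated at 0.29 to 0.97, so the library was a block. The test recovered 79.6% of genes changed by 1 log2 unit in simulated counts of the Tal1 comparison, 93.8% in that of cycling and 74.7% in that of stage. The same dispersion was simulated for each, while the fitted common coefficients of variation were 0.047, 0.157 and 0.249. It lay above the dispersion fitted for Tal1 and below those fitted for cycling and stage. Changes under 1 log2 unit, or differing between libraries, were not simulated. WT and preleukemic are 1 animal each, so libraries were compared by ratio alone. DESeq2 1.42.0 was an alternative. Intervals are exact Poisson or Clopper-Pearson at 95% and cover counting error only.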

Additional observations from a re-analysis of the deposited data

Results flagged for a closer look

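Several differences in WT or preleukemic cells ran opposite to those of both leukemias; none of these contrasts between groups was tested. For Il2ra-positive double-negative over double-positive cells, the log2 ratio of Adam19 was 3.42 for WT and 2.70 for preleukemic cells against -1.19 for T-ALL#1 and -1.28 for T-ALL#2. The counting intervals excluded 0 in all 4 libraries, although the preleukemic value rests on 2 UMIs in double-positive cells. For Arid5b and Cd53 WT alone stood apart. Arid5b was 1.49 in WT against -0.21 in preleukemic cells, -1.64 in T-ALL#1 and -0.93 in T-ALL#2, and the preleukemic and T-ALL#2 intervals included 0, the latter with 6 UMIs in double-positive cells. Cd53 was 1.30 in WT against -0.45, -0.84 and -2.42 in the same order. For Tgfbr2 it was 0.25 in WT and 0.44 in preleukemic cells against -0.81 and -1.13 in the leukemias, and both first intervals included 0.

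For Tal1-detected over undetected cells, Cd53 was -0.13 for preleukemic cells against 0.23 for T-ALL#1 and 0.15 for T-ALL#2, and both leukemic intervals included 0. Tgfbr2 was -0.057 against 0.72 and 0.56, and the intervals of the preleukemic and T-ALL#2 values included 0.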

How the results depend on the processing

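Among the 5 genes, results of the 3 edgeR tests kept direction and side of the threshold in 167 of the recomputed values, fell below it in 14, passed it in 14 and changed direction in 18, and library levels stayed within their counting interval in 26 values and moved beyond it in 49. With cells weighted equally, 1 instead of 0 of the 5 genes was past 2-fold between preleukemic and WT. The causes of the changes below were not tested.

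Without the pairing of sums by library (no replicate block), 0 of the 5 genes and 0, 1003 and 0 genes in all passed for Tal1, cycling and stage, and Adam19 between stages was -0.59; with the block the counts were 705, 6011 and 1107. For cycling, UMIs per cell, chosen after the data were seen, gave 2 of the 5 genes and 9403 genes, of which 97.8% were higher against 43.6% by CPM.

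For Tal1, the count among the 5 genes was 1 with RLE factors, DESeq2, no low-count filter or a mitochondrial limit of 5%, 2 at 4000 UMIs, with full counts or with no upper limit on genes, and 0 in cells with Cd4 or Cd8a or non-cycling cells; leaving out any 1 library gave 1. Over all genes it was 137 in DESeq2, 1701 at 4000 UMIs, 1834 with full counts, 371 at the 5% limit, 146 in cells with Cd4 or Cd8a, 12 in non-cycling cells and 292 to 645 without 1 library. Arid5b was -0.20 in cells with Cd4 or Cd8a and -0.021 in non-cycling cells. Cd53 was 0.018 in DESeq2, 0.15 at 4000 UMIs, 0.14 with full counts and -0.15 to 0.20 without 1 library, and Tgfbr2 -0.036 to 0.67. Without B-like and myeloid-like cells, an alternative chosen after the data were seen, 0 of the 5 genes passed in edgeR. At an unadjusted p under 0.05, 2 of the 5 passed there, against 1962 of 9840 genes.

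For stage, the count was 0 with gates on all UMIs, in non-cycling cells or at the 5% limit and 0 to 2 without 1 library; over all genes it was 101, 652, 372 and 60 to 2037, and 1874 with no upper limit on genes. Arid5b was 0.26 at the 5% limit, 0.070 in non-cycling cells and -0.94 to 0.48 without 1 library. Adam19 was -0.23 with gates on all UMIs, -0.054 with no upper limit and -0.59 to 1.13 without 1 library. Tgfbr2 was 0.021 with gates on all UMIs and -0.43 to 0.027 without 1 library, and Cd53 -0.96 to 0.075.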
